A study of Homo sapiens with 6 samples.

Results

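Genes of the tumor necrosis factor (TNF) ligand and receptor superfamilies were examined in HCT116 cells, a human colon carcinoma line, with and without *ZKSCAN3*. The genes named as TNF-induced (TNFAIP) were included. The protein-coding genes whose symbol starts with TNFSF, TNFRSF or TNFAIP were taken, with 1 further receptor gene not analysed here, which gave 41 of the 46427 genes in the table. They comprised 12 ligand genes, 4 receptor genes with a death domain, 4 decoy receptor genes, 12 other receptor genes and 9 TNFAIP genes, and the 40 of them with a position in the annotation lay on 17 chromosomes of GRCh37. Parental HCT116 cells (*ZK3*-WT) and HCT116 cells with a biallelic CRISPR/Cas9 deletion of the *ZKSCAN3* start codon (*ZK3*-KO) were grown in the same serum-containing medium, with no other agent, and 3 biological replicates of each were sequenced from polyadenylated RNA. The *ZK3*-KO cells were grown from single cells selected with puromycin, the number of clones behind the 3 libraries is not given in the sources used here, and the loss of *ZKSCAN3* and differences between a clone and its parental population cannot be told apart.

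TNF superfamily ligands are mostly membrane proteins that form trimers, and proteases release many of them from the cell surface. Their receptors carry cysteine-rich repeats outside the cell. Receptors with a death domain can recruit adaptors and caspase-8, receptors without one bind TRAF adaptors that lead to NF-κB, and decoy receptors bind ligand without passing on a full signal. Many ligands are made by immune cells, whereas colon epithelial cells express several of the receptors. The prefix TNFAIP refers to induction by TNF, which need not hold for each gene that carries it. The TNFAIP genes encode proteins of several families, among them the NF-κB inhibitor A20 (*TNFAIP3*).

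The libraries held between 60827060 and 69739215 counted reads, of which between 0.0642% and 0.0945% fell on the 41 genes. The epithelial markers *EPCAM*, *KRT8*, *KRT18*, *KRT19*, *CDH1* and *CDX2* had at least 1 TPM (transcripts scaled for length and library size) in every library, while *VIL1* and *LGALS4* were below 1 TPM in all. Each of the 7 lymphocyte markers was below 1 TPM in all libraries, with a summed level of 0.147 to 0.239 TPM in *ZK3*-WT and 0.212 to 0.31 TPM in *ZK3*-KO cells, and 5 of them (*PTPRC*, *CD3E*, *CD3D*, *CD2* and *MS4A1*) had no read. Of 5 macrophage and 6 fibroblast markers, 1 each was at 1 TPM or more in every library (*CD68* at 2.05 to 12.3 TPM and *COL1A1* at 11.9 to 29.1 TPM). The summed level was 4.31 to 13.2 TPM in *ZK3*-WT and 2.32 to 8.56 TPM in *ZK3*-KO cells for the macrophage list, and 17.5 to 21.7 TPM and 12.1 to 29.3 TPM for the fibroblast list. The other markers of both lists and all 4 endothelial markers were below 1 TPM in every library. *ZKSCAN3* mRNA amounted to 23.8 ± 4.17 CPM (read counts scaled for library size) in *ZK3*-WT and 21.3 ± 6.68 CPM in *ZK3*-KO cells (SD, n = 3 each), and these values overlapped. The reads outside the deleted start codon do not check the knockout. *ZK3*-KO replicate 3 stood apart, with correlations of log2(CPM + 1) across genes of 0.973 and 0.961 with the other *ZK3*-KO libraries, against 0.993 between those and 0.991 to 0.995 among *ZK3*-WT libraries. Differences were therefore given with and without this library. The fit without it keeps *ZK3*-WT replicate 3, whose deviations from its group mean across genes correlated at 0.616 with those of *ZK3*-KO replicate 3. A gene high in both replicate 3 libraries is thus shifted downward in that fit.

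Of the 41 genes, 19 were expressed in *ZK3*-WT cells, taken as at least 1 TPM in all 3 libraries. TPM values, which the authors deposited, are scaled by transcript length and were used for every comparison of levels between genes. The expressed genes were 4 of 12 ligands, all 4 death domain receptors, 3 of 4 decoy receptors, 3 of 12 other receptors and 5 of 9 TNFAIP genes. In *ZK3*-KO cells 19 genes were also expressed, and 17 were common to both genotypes. *TNFSF13* and *TNFSF18* were expressed in *ZK3*-WT cells only by this level, and *TNFRSF11A* and the *TNFSF12-TNFSF13* readthrough in *ZK3*-KO cells only. No read was counted in any library for 7 genes (*TNFSF8*, *TNFSF11*, *TNFRSF11B*, *TNFRSF13B*, *TNFRSF17*, *TNFAIP6* and *TNFAIP8L2*). The other 13 had reads but stayed below the level in at least 1 library of each genotype. Among these were *TNFSF10*, which encodes the death ligand TRAIL, with 0 to 14 reads in a *ZK3*-WT library and none in *ZK3*-KO cells, and *TNFSF15*, *TNFSF14*, *TNFRSF14* and *TNFRSF4*, with at most 16 reads in any library.

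The receptors were far more abundant than the ligands in both genotypes. The TPM of the receptor genes summed to 530, 736 and 960 in the *ZK3*-WT libraries, against 409, 395 and 755 in the *ZK3*-KO libraries, in the order of replicates 1, 2 and 3. The ligand genes summed to between 48.2 and 52.6 TPM in *ZK3*-WT and between 43.4 and 46.4 TPM in *ZK3*-KO cells. Most of the receptor TPM in *ZK3*-WT cells came from *TNFRSF12A*, *TNFRSF6B* and *TNFRSF1A*. They made up between 63.9% and 79.9% of the sum in *ZK3*-WT libraries, 45.6% and 45.7% in *ZK3*-KO replicates 1 and 2, and 70.7% in *ZK3*-KO replicate 3.

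The highest mean level in *ZK3*-WT cells was that of *TNFRSF12A*, the receptor Fn14 of the ligand TWEAK, at 318 ± 160 TPM (SD, n = 3). It was followed by *TNFRSF6B*, a secreted decoy receptor for FAS ligand, TL1A and LIGHT, at 135 ± 61.5 TPM, and by *TNFRSF1A*, the main TNF receptor, at 101 ± 9.35 TPM. The range of *TNFRSF6B* over the libraries, 94.7 to 206 TPM, overlapped those of both others, whereas *TNFRSF12A* (140 to 450 TPM) lay above *TNFRSF1A* (95.1 to 112 TPM). *TNFRSF21*, the death receptor DR6, stood at 54.3 ± 9.65 TPM and *TNFAIP2* at 46.3 ± 4.19 TPM (SD, n = 3 each), and their ranges overlapped as well. The most abundant ligand was *TNFSF9*, which encodes 4-1BBL, at 22.1 ± 3.17 TPM, followed by *TNFSF12* (TWEAK) at 12.7 ± 2.15 TPM and *TNFSF18* (GITRL) at 12 ± 7.52 TPM (SD, n = 3 each). The ranges of *TNFSF12* and *TNFSF18* overlapped, and both lay below that of *TNFSF9*.

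**Figure D1:**
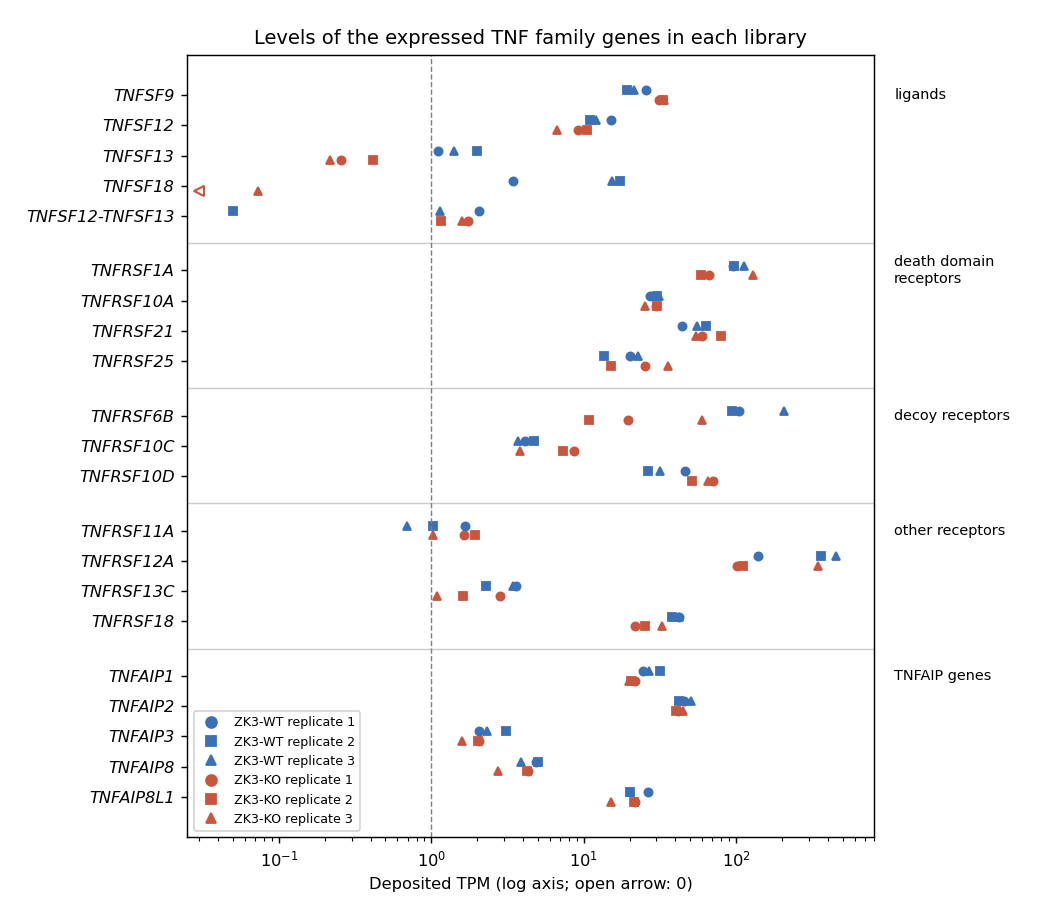
Deposited TPM (log axis) of the 21 genes expressed in either genotype, with 1 point per library, blue for *ZK3*-WT and red for *ZK3*-KO, and the dashed line at 1 TPM. In *ZK3*-WT cells the mean levels of *TNFRSF12A*, *TNFRSF6B* and *TNFRSF1A* are the highest, *TNFRSF6B* is at 19.6 and 10.8 TPM in *ZK3*-KO replicates 1 and 2, and *TNFSF18* is at 0 TPM in *ZK3*-KO replicates 1 and 2, which share 1 open arrow.

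For several of the expressed genes the partner was also counted. *TNFSF12* and its receptor *TNFRSF12A* were expressed in both genotypes. *TNFSF18* and its receptor *TNFRSF18* (GITR) were both expressed in *ZK3*-WT cells, and only the receptor in *ZK3*-KO cells. The ligand *TNFSF9* was well expressed, whereas its receptor *TNFRSF9* (4-1BB) ranged from 0.113 to 0.512 TPM in *ZK3*-WT and from 0.133 to 0.602 TPM in *ZK3*-KO cells. The reverse held for *TNFRSF25* (DR3), at 18.8 ± 4.67 TPM (SD, n = 3), whose ligand gene *TNFSF15* had at most 7 reads, and for *TNFRSF10A*, a TRAIL receptor at 29.6 ± 2.10 TPM (SD, n = 3), whose ligand gene *TNFSF10* had at most 14 reads. *TNFRSF13C*, the receptor of BAFF, had 3.11 ± 0.722 TPM (SD, n = 3), while the BAFF gene *TNFSF13B* reached at most 0.304 TPM in a *ZK3*-WT library.

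The genotypes were then compared with edgeR's quasi-likelihood test on the read counts of all 18366 genes that passed its expression filter, and FDR values were adjusted over all of them. Differences are *ZK3*-KO minus *ZK3*-WT in log2 units with their standard error (SE), and values by library follow the order of replicates 1, 2 and 3. Of the 41 genes, 29 were tested. *TNFSF18* and *TNFSF13* passed an FDR of 0.05 as lower in *ZK3*-KO cells (2 of 29 genes), and no gene of the family passed as higher. *TNFSF18* passed the expression filter only through its reads in *ZK3*-WT cells, and the call of *TNFSF13* changed with how reads were assigned. Over all genes 2.05% passed, 0.817% as higher and 1.23% as lower in *ZK3*-KO cells. The median log2 fold change was -0.09 over the 29 genes, the same with *TNFSF18* set at 3 reads in the *ZK3*-KO group, and 0.02 over all genes tested. An unadjusted p under 0.05 was found for 8 of the 29 genes, and for 18.4% of all genes. The groups did not overlap in CPM for 11 of them (26.6% of all genes), 5 higher (12.7% of all genes) and 6 lower (13.8%). With the replicate number as a block, 4 of 29 genes passed, where 2.51% of all genes did. When *ZK3*-KO replicate 3 was left out, 8 of 29 genes passed, 2 higher and 6 lower, where 15.1% of all genes passed (7.41% higher and 7.73% lower).

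**Figure D2:**
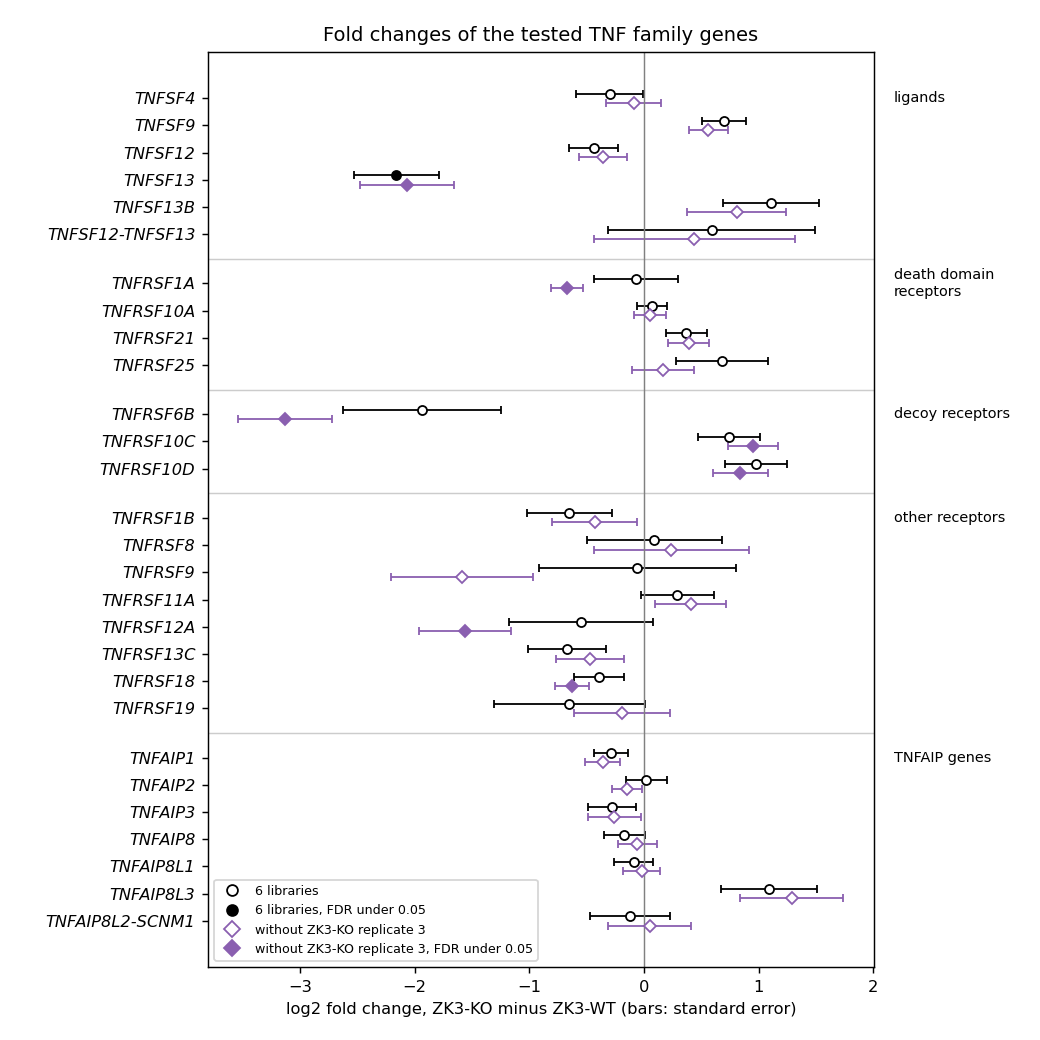
Log2 fold changes of *ZK3*-KO against *ZK3*-WT cells with their standard errors for 28 tested genes, with all 6 libraries (black) and without *ZK3*-KO replicate 3 (purple), filled where the FDR from edgeR's test was under 0.05. *TNFSF18* is left out because it was almost without reads in *ZK3*-KO cells. *TNFSF13* is filled in both fits, and *TNFRSF6B* moves from -1.94 to -3.13.

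The largest difference was that of the ligand gene *TNFSF18* (NCBI Gene 8995), whose GRCh37 position is chromosome 1, 173008342 to 173020081, reverse strand. It encodes GITRL, which costimulates T cells through GITR. There were 78, 419 and 386 reads of *TNFSF18* in the *ZK3*-WT libraries, against 0, 0 and 2 reads in the *ZK3*-KO libraries. Every *ZK3*-WT library was thus above every *ZK3*-KO library, although replicate 1 had far fewer reads than the other *ZK3*-WT libraries. The summed reads, scaled for depth, were 425 times higher in *ZK3*-WT than in *ZK3*-KO cells (exact 95% interval from 117 to 3520), an interval that covers counting error only. The FDR was 0.0116 in edgeR's test and lay between 4.1e-11 and 0.0772 over the alternatives. It was above 0.05 without *ZK3*-WT replicate 2 (0.0735), *ZK3*-WT replicate 3 (0.0573) or *ZK3*-KO replicate 1 (0.0772). The gene passed the expression filter only through its reads in *ZK3*-WT cells. In bulk RNA, fewer cells with the transcript and less of it in each cell cannot be told apart. The next ligand gene along the chromosome, *TNFSF4* (OX40L), is separated from *TNFSF18* by 132.8 kb. It amounted to 2.93, 2.82 and 2.96 CPM in the *ZK3*-WT libraries, against 3.14, 2.31 and 1.63 CPM in the *ZK3*-KO libraries. These values overlapped, with a log2 difference of -0.30 ± 0.29 (SE, edgeR FDR 0.629).

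The sequences in front of 3 genes whose groups did not overlap are shown for comparison, *TNFSF18* and *TNFRSF6B* as genes with fewer reads and *TNFSF9* as a gene with more reads in *ZK3*-KO cells. Each is the 250 bases before the RefSeq start, taken from a RefSeq promoter table of GRCh38.p14 and matched exactly and once to GRCh37, and capitals mark TATAAA or GGGCGG on either strand. They lie at chr1:173020082-173020331 (reverse strand), chr19:6530787-6531036 and chr20:62327755-62328004.
TNFSF18: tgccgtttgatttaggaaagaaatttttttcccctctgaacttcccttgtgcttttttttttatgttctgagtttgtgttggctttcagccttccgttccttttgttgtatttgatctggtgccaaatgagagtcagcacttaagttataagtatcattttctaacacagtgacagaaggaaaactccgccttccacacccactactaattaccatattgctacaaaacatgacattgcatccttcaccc
TNFSF9: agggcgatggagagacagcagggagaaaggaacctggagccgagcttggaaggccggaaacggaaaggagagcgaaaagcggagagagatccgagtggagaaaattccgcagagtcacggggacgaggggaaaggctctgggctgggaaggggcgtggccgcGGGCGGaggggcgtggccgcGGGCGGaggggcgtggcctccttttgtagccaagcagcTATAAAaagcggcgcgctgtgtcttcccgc
TNFRSF6B: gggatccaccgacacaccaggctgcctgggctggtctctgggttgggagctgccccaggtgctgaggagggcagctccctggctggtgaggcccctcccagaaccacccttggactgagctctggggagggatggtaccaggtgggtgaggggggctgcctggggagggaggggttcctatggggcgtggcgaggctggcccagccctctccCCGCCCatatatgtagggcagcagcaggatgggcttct
TATAAA was present once in *TNFSF9*, with its first base 30 bases before the start, and GGGCGG at 88 and 68 bases before it. *TNFRSF6B* held GGGCGG once, read on the reverse strand and shown as CCGCCC, with its first letter 38 bases before the start, and *TNFSF18* held neither. Of 35116 such windows, 10.7% held TATAAA and 42.6% held GGGCGG on either strand. The *TNFSF18* window had a GC content of 38.8% and 3 CpG dinucleotides, against 64.4% and 23 for *TNFSF9*, 68.0% and 4 for *TNFRSF6B*, and medians of 58.0% and 11 over all windows. These are descriptions of the letters, and no binding was measured.

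*TNFSF13* (NCBI Gene 8741), which encodes APRIL, a ligand for plasma cell receptors, lies on chromosome 17 from 7461609 to 7464925, on the forward strand. Its level was 1.13, 2.05 and 1.53 CPM in the *ZK3*-WT libraries, against 0.279, 0.462 and 0.307 CPM in the *ZK3*-KO libraries. All *ZK3*-KO libraries were below all *ZK3*-WT libraries, with a log2 difference of -2.16 ± 0.37 (SE, edgeR FDR 0.0366). The call changed with how reads were assigned at this locus. *TNFSF13* overlaps the *TNFSF12-TNFSF13* readthrough, which had 116, 3 and 71 reads in the *ZK3*-WT libraries, against 100, 72 and 109 reads in the *ZK3*-KO libraries. The readthrough was thus lowest in *ZK3*-WT replicate 2, the library with the most *TNFSF13* reads. With the reads of both rows added, an alternative chosen after seeing the data, there were 187, 147 and 178 reads in *ZK3*-WT and 118, 104 and 128 reads in *ZK3*-KO cells, and the log2 difference came to -0.49 ± 0.26 (SE, edgeR FDR 0.361). The groups still did not overlap, at 2.1 to 2.97 CPM in *ZK3*-WT and 1.5 to 2.07 CPM in *ZK3*-KO cells. Leaving out any 1 library other than *ZK3*-KO replicate 3 also raised the FDR of *TNFSF13* above 0.05 (0.0615 to 0.184).

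The neighbour *TNFSF12*, which encodes TWEAK and ends 0.4 kb before *TNFSF13*, amounted to 10.3, 7.36 and 8.37 CPM in the *ZK3*-WT libraries, against 6.23, 7.24 and 5.75 CPM in the *ZK3*-KO libraries. Its groups did not overlap, but the log2 fold change of -0.44 did not pass (SE 0.21, edgeR FDR 0.315).

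*TNFSF9* (NCBI Gene 8744; chromosome 19, 6531037 to 6535935, forward strand) encodes 4-1BBL, which costimulates T cells. Its level was 20.1, 14.6 and 16.7 CPM in the *ZK3*-WT libraries, against 24.3, 26.1 and 33.0 CPM in the *ZK3*-KO libraries. Each *ZK3*-KO library was above each *ZK3*-WT library, *ZK3*-KO replicate 3 included. The log2 difference came to 0.70 ± 0.19 (SE, edgeR FDR 0.122), which did not pass, and it passed only with DESeq2 (FDR 0.0371) among the alternatives. *CD70*, a further ligand gene of the superfamily 47.3 kb from *TNFSF9*, had 0.652, 0.713 and 0.729 CPM in the *ZK3*-WT libraries, against 1.40, 1.02 and 1.76 CPM in the *ZK3*-KO libraries. It did not pass either (log2 fold change 1.00, standard error 0.31, FDR 0.158, edgeR's test). *TNFSF13B*, which encodes the B cell ligand BAFF, was low in both genotypes, at 0.354 ± 0.0423 CPM in *ZK3*-WT and 0.770 ± 0.328 CPM in *ZK3*-KO cells (SD, n = 3 each, FDR 0.224, edgeR's test).

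Among the decoy receptors, the 3 that were tested differed in direction, and none passed in edgeR's test with all libraries and no block. *TNFRSF6B* (NCBI Gene 8771; chromosome 20, 62328005 to 62330037, forward strand) encodes the secreted decoy DcR3. Its level was 57.0, 49.9 and 112 CPM in the *ZK3*-WT libraries, against 10.7, 5.91 and 40.5 CPM in the *ZK3*-KO libraries. The groups did not overlap, and in both of them replicate 3 was the highest library. The log2 fold change of -1.94 carried an SE of 0.69 (edgeR FDR 0.206). It was -3.13 (SE 0.41, edgeR FDR 0.00277 in the same test) without *ZK3*-KO replicate 3. With the replicate number as a block, it was -2.31 with an FDR of 0.0215. The gene begins 0.4 kb after *RTEL1* ends and overlaps the *RTEL1-TNFRSF6B* readthrough. *RTEL1* itself, a DNA helicase gene, was at 41.6 ± 11 CPM in *ZK3*-WT and 50.3 ± 8.85 CPM in *ZK3*-KO cells (SD, n = 3 each, FDR 0.594, edgeR's test). With the readthrough reads added, *TNFRSF6B* had a log2 difference of -1.75 ± 0.56 (SE, edgeR FDR 0.169).

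*TNFRSF10D* and *TNFRSF10C*, which encode the TRAIL decoys DcR2 and DcR1, lie 18.1 kb apart on chromosome 8. *TNFRSF10D* amounted to 78.5, 42.9 and 53.7 CPM in the *ZK3*-WT libraries, against 120, 87.7 and 139 CPM in the *ZK3*-KO libraries. The groups did not overlap, with a log2 difference of 0.98 ± 0.27 (SE, edgeR FDR 0.119). Among the alternatives it passed with DESeq2 on all 6 libraries (0.99, FDR 0.0156), without *ZK3*-KO replicate 3 (0.84, FDR 0.0453) and with the replicate number as a block (1.00, FDR 0.0489). *TNFRSF10C* had a level of 4.17 ± 0.514 TPM in *ZK3*-WT cells, against 34.8 ± 10.3 TPM for *TNFRSF10D* (SD, n = 3 each). Its reads came to 2.77, 3.04 and 2.46 CPM in the *ZK3*-WT libraries, against 5.74, 4.90 and 3.20 CPM in the *ZK3*-KO libraries. Its log2 difference came to 0.74 ± 0.27 (SE, edgeR FDR 0.213) with all libraries and 0.95 (FDR 0.0227) without *ZK3*-KO replicate 3. The genes of this cluster are similar in sequence, so reads may have been split between them. *TNFRSF10A*, the signalling TRAIL receptor 26.4 kb from *TNFRSF10D*, had 35.3, 37.4 and 40.3 CPM in the *ZK3*-WT libraries, against 38.3, 39.2 and 40.8 CPM in the *ZK3*-KO libraries. These values overlapped, with a log2 difference of 0.07 ± 0.13 (SE, edgeR FDR 0.829).

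**Figure D3:**
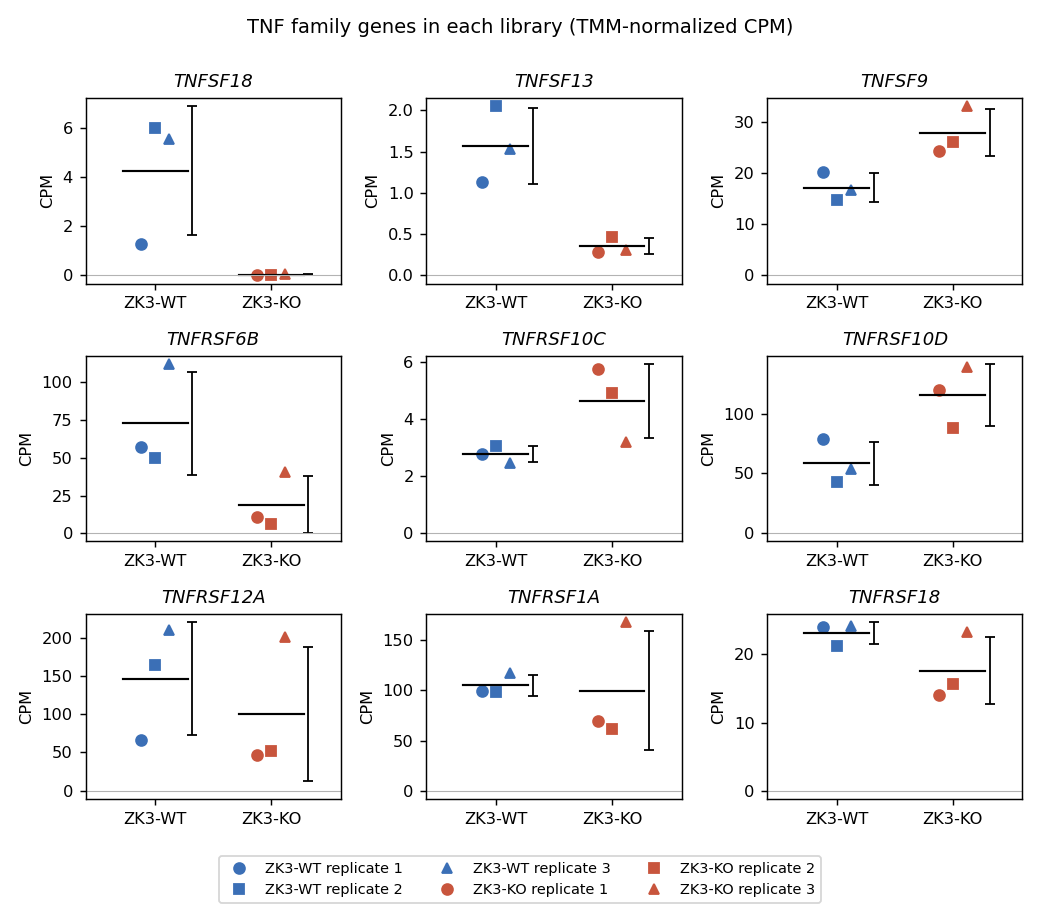
TMM-normalized CPM (linear axes from 0) of 9 genes in each library, with the mean as a line and the SD as a bar (n = 3). *TNFSF18* and *TNFSF13* are lower and *TNFSF9* and *TNFRSF10D* higher in every *ZK3*-KO library, while *TNFRSF12A*, *TNFRSF1A* and *TNFRSF18* are higher in *ZK3*-KO replicate 3 (triangle) than in the other *ZK3*-KO libraries.

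None of the 4 death domain receptors passed an FDR of 0.05 with all libraries. *TNFRSF1A*, through which TNF signals in most cells, amounted to 99.8, 98.1 and 117 CPM in the *ZK3*-WT libraries, against 69.7, 61.4 and 168 CPM in the *ZK3*-KO libraries. *ZK3*-KO replicate 3 was thus the highest and the other *ZK3*-KO libraries the lowest of the 6. The log2 difference came to -0.07 ± 0.37 (SE, edgeR FDR 0.943), and -0.67 (SE 0.14, edgeR FDR 0.0173) without *ZK3*-KO replicate 3. With the replicate number as a block, it was -0.23 (edgeR FDR 0.634). *TNFRSF25* was likewise highest in *ZK3*-KO replicate 3, at 35.4 CPM against 9.80 to 19.1 CPM in the other libraries, and did not pass in either fit (FDR 0.415 and 0.706, edgeR's test). *TNFRSF21* amounted to 75.7, 104 and 95.5 CPM in the *ZK3*-WT libraries, against 103, 138 and 117 CPM in the *ZK3*-KO libraries, with overlapping groups and a log2 difference of 0.37 ± 0.18 (SE, edgeR FDR 0.330).

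Of the 12 other receptors, 8 were tested, none passed with all libraries, and 2 fell without *ZK3*-KO replicate 3. *TNFRSF12A* amounted to 65.7, 164 and 210 CPM in the *ZK3*-WT libraries, against 47.2, 52.1 and 201 CPM in the *ZK3*-KO libraries. The groups overlapped, although within each replicate number the *ZK3*-KO library was the lower. The log2 difference was -0.55 ± 0.63 (SE, edgeR FDR 0.699), and -0.72 (FDR 0.235) with the replicate number as a block. Without *ZK3*-KO replicate 3 it was -1.56 (SE 0.40, edgeR FDR 0.0338). *TNFRSF18*, which encodes GITR, the receptor of the *TNFSF18* product, had 24.0, 21.2 and 24.1 CPM in the *ZK3*-WT libraries, against 14.0, 15.6 and 23.3 CPM in the *ZK3*-KO libraries. Its log2 difference came to -0.39 ± 0.22 (SE, edgeR FDR 0.392) with all libraries and -0.63 (SE 0.15, edgeR FDR 0.0265) without *ZK3*-KO replicate 3 in edgeR's test. *TNFRSF11A*, which encodes the receptor RANK, and *TNFRSF13C*, the BAFF receptor gene, had log2 fold changes of 0.29 and -0.67 (FDR 0.687 and 0.345, edgeR's test). *TNFRSF19* (TROY), *TNFRSF1B*, *TNFRSF8* and *TNFRSF9* were below 3 CPM in every library, with FDR values between 0.397 and 0.979. *ZK3*-KO replicate 3 lay on the other side of the *ZK3*-WT mean from both other *ZK3*-KO libraries for 5 of the 29 genes (*TNFAIP2*, *TNFRSF12A*, *TNFRSF18*, *TNFRSF1A* and *TNFRSF9*), or 17.2%, and for 31.9% of all genes tested.

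None of the 7 tested TNFAIP genes passed an FDR of 0.05 with or without *ZK3*-KO replicate 3. *TNFAIP3*, which encodes the deubiquitinase A20 that limits NF-κB signalling, amounted to 4.71, 6.70 and 5.23 CPM in the *ZK3*-WT libraries, against 4.70, 4.57 and 4.45 CPM in the *ZK3*-KO libraries. The groups lay side by side without overlap, and the log2 fold change of -0.28 did not pass (SE 0.21, edgeR FDR 0.534). *TNFAIP2*, the most abundant of them, had 96.8, 88.4 and 106 CPM in the *ZK3*-WT libraries, against 87.9, 85.7 and 121 CPM in the *ZK3*-KO libraries (edgeR FDR 0.972), and its fold change changed sign with the scaling. *TNFAIP1*, an adaptor of a cullin ubiquitin ligase, had 46.9 ± 5.28 and 38.4 ± 3.71 CPM (SD, n = 3 each, FDR 0.365, edgeR's test). *TNFAIP8* and *TNFAIP8L1*, of a family of lipid-binding proteins, had log2 fold changes of -0.17 and -0.09 (FDR 0.672 and 0.829), and the *TNFAIP8L2-SCNM1* readthrough, whose reads cannot be told apart from those of *SCNM1* where they share exons, one of -0.12 (FDR 0.884). *TNFAIP8L3* had at most 53 reads in any library and a log2 difference of 1.09 ± 0.42 (SE, edgeR FDR 0.233), with groups that did not overlap.

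The genes around these receptors were read out of the same test with 6 lists of other superfamily members and signalling components, 84 genes in all, of which 71 were tested and 64 were expressed in *ZK3*-WT cells. With all libraries, 0 of these had an edgeR FDR under 0.05. An unadjusted p under 0.05 was found for 9 of 71, or 12.7%, below the 18.4% of all genes. DESeq2 called 4 of 73, or 5.48%, where it called 5.98% of all genes with an adjusted p. With the replicate number as a block, 2 of 71 passed (*EDAR* and *ICAM1*), or 2.82%, near the 2.51% of all genes. The median log2 fold change was -0.01, against 0.02 over all genes tested. Without *ZK3*-KO replicate 3, 14 of 71 passed (19.7%), 5 higher and 9 lower, where 15.1% of all genes passed. *EDAR*, which is among the genes called in these alternatives, passed the expression filter only through its reads in *ZK3*-WT cells.

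Among superfamily genes with other names, *TNF* itself had 5 reads in *ZK3*-WT replicate 2 and none elsewhere, and *LTB*, *CD40LG* and *CD27* had no read in any library. *LTBR*, the lymphotoxin-β receptor gene, *NGFR*, *CD40*, *RELT* and *FAS* were expressed. *NGFR*, the low-affinity neurotrophin receptor gene, had 30.1, 26 and 23.6 CPM in the *ZK3*-WT libraries, against 22.9, 14.6 and 13.6 CPM in the *ZK3*-KO libraries, with groups that did not overlap and a log2 difference of -0.64 ± 0.23 (SE, edgeR FDR 0.211). *FAS*, a death receptor gene, had 10.7, 10.6 and 8.72 CPM in the *ZK3*-WT libraries, against 16.3, 17 and 8.84 CPM in the *ZK3*-KO libraries. It did not pass with all libraries (0.49, FDR 0.383) but did without *ZK3*-KO replicate 3 (0.74, FDR 0.0217). *EDAR*, the ectodysplasin receptor gene, had 38, 162 and 65 reads in the *ZK3*-WT libraries, against 0, 8 and 0 reads in the *ZK3*-KO libraries. The summed reads, scaled for depth, were 31.9 times higher in *ZK3*-WT cells (exact 95% interval from 16.0 to 74.7, for counting error only), and the FDR in edgeR's test was 0.0724 with all libraries, 0.0190 without *ZK3*-KO replicate 3 and 0.0241 with the replicate number as a block. *EDAR* and *CD70* are named here outside the rule, with their values known.

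**Figure D4:**
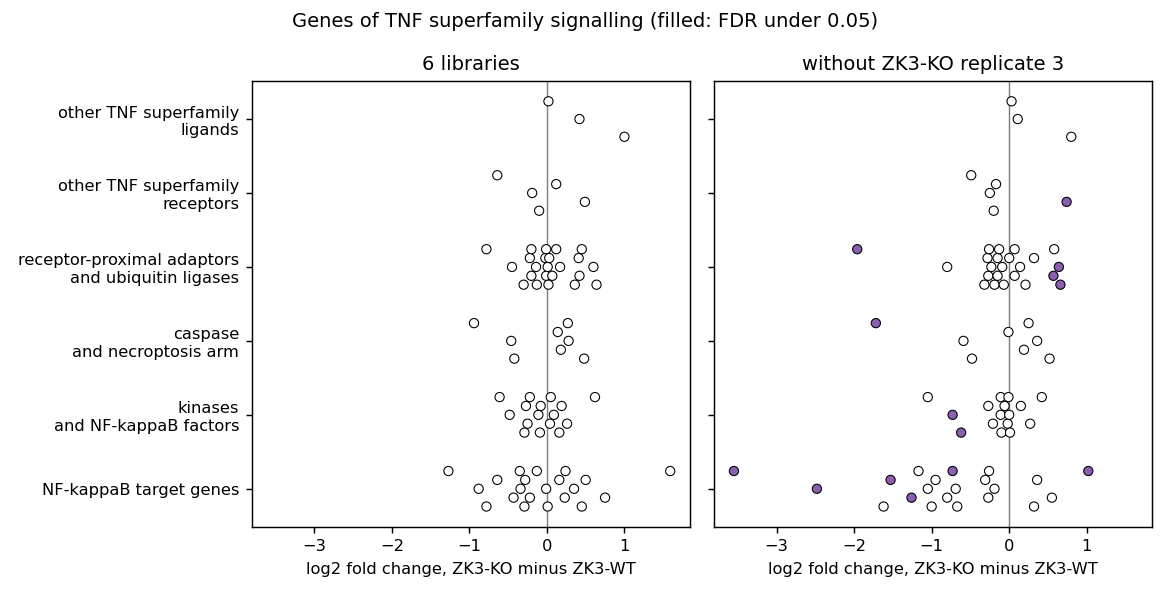
Log2 fold changes of *ZK3*-KO against *ZK3*-WT cells for the tested genes of 6 lists, with all 6 libraries (left) and without *ZK3*-KO replicate 3 (right), filled where the FDR from edgeR's test was under 0.05. Each list has 1 point per gene, and a gene in more than 1 list, such as *NFKB2*, is drawn in each. No point is filled on the left and 13 genes are filled on the right. *EDAR* is not drawn because it was nearly without reads in *ZK3*-KO cells.

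Of the 23 receptor-proximal adaptors and ubiquitin ligases, all were tested and 12 had a log2 fold change above 0. So did 9488 of all 18366 genes tested. *TRAF3*, an adaptor that restrains noncanonical NF-κB signalling, amounted to 65.6, 73.0 and 74.0 CPM in the *ZK3*-WT libraries, against 99.5, 123 and 98.7 CPM in the *ZK3*-KO libraries. All *ZK3*-KO libraries were above all *ZK3*-WT libraries, but the log2 fold change of 0.60 did not pass (SE 0.15, edgeR FDR 0.101; 0.0190 without *ZK3*-KO replicate 3). *BIRC3*, which encodes the ubiquitin ligase cIAP2, had 7.96 ± 1.45 CPM in *ZK3*-WT and 4.62 ± 1.24 CPM in *ZK3*-KO cells (SD, n = 3 each), also without overlap (log2 fold change -0.78, FDR 0.190, edgeR's test). In the caspase and necroptosis list, 8 of 9 genes were tested, and *CASP10* had a log2 fold change of -0.94 (SE 0.56, edgeR FDR 0.420; -1.72 and 0.0244 without *ZK3*-KO replicate 3) and *MLKL*, the necroptosis effector, one of 0.48 (SE 0.21, edgeR FDR 0.276).

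Of 16 kinases and NF-κB factors, all were tested and 9 had a log2 fold change below 0, where 8878 of all 18366 genes did. *IKBKB*, which encodes the kinase IKKβ that releases NF-κB, amounted to 35.3, 33.0 and 35.1 CPM in the *ZK3*-WT libraries, against 23.4, 21.4 and 22.9 CPM in the *ZK3*-KO libraries. The spread within each genotype was small, and *ZK3*-KO replicate 3 lay with the other *ZK3*-KO libraries. The log2 difference came to -0.61 ± 0.13 (SE, edgeR FDR 0.0701; 0.0205 without *ZK3*-KO replicate 3, and 0.00688 to 0.306 over the alternatives). *NFKBIB*, an inhibitor of NF-κB, had a log2 difference of 0.62 ± 0.23 (SE, edgeR FDR 0.223).

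Of 29 NF-κB target genes, 21 were tested, 9 with a log2 fold change above 0 and 12 below. Over all 18366 genes tested, 9488 were above 0 and 8878 below. *ICAM1*, an adhesion molecule gene, amounted to 6.87, 10.3 and 11.8 CPM in the *ZK3*-WT libraries, against 21.3, 17.9 and 48.1 CPM in the *ZK3*-KO libraries, with groups that did not overlap. Its log2 difference came to 1.59 ± 0.40 (SE, edgeR FDR 0.103), with an FDR of 0.0220 without *ZK3*-KO replicate 3 and of 0.0400 with the replicate number as a block. *CXCL8*, a neutrophil chemokine gene, had overlapping groups, with 0.843, 4.41 and 5.41 CPM in the *ZK3*-WT libraries, against 0.435, 0.173 and 3.82 CPM in the *ZK3*-KO libraries (log2 fold change -1.27, FDR 0.585 in edgeR's test; -3.55 and 0.0206 without *ZK3*-KO replicate 3). The median log2 fold change of the list was -0.13, or -0.73 when *ZK3*-KO replicate 3 was left out, against 0.02 and -0.02 over all genes tested. The second fit keeps *ZK3*-WT replicate 3, the highest *ZK3*-WT library for *CXCL8*, *CXCL1*, *CXCL2*, *IER3*, *RELB*, *NFKB2*, *SDC4*, *LAMB3* and *PLAU*. Replicate 3 was also their highest *ZK3*-KO library, so they are shifted downward in that fit. Between that fit and the one with the replicate number as a block, *SDC4* moved from -0.67 to -0.01 and *RELB* from -1.05 to -0.35. *CXCL1* moved from -2.48 to -1.32 and *IER3* from -1.53 to -0.72. Whether the list median falls without this shift was not tested. With the replicate number as a block, the log2 fold change of *CXCL8* was -1.8 (edgeR FDR 0.249). *EDA*, the ligand gene for *EDAR*, had a log2 fold change of 0.02 (FDR 0.976, edgeR's test), and its sign changed with the scaling.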

How the data were processed

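RNA from 3 *ZK3*-WT and 3 *ZK3*-KO HCT116 cultures, described as biological triplicates, was sequenced as stranded poly(A) libraries of 150 bp paired-end fragments. If the triplicates were not separate cultures, p-values measure only technical spread. The authors deposited 1 table with raw read counts, FPKM and TPM per gene. Per the submitters' processing notes, Bowtie2 2.2.5 and hg19 were used. The study's methods name Ensembl transcripts, whereas the table lists NCBI Gene IDs and RefSeq transcripts. The deposited counts were tested, the deposited TPM, scaled by the authors for length and depth, gave levels, and the deposited FPKM values were not used.

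Counts were filtered with filterByExpr, normalized by TMM and tested with edgeR 4.0.16 (glmQLFit and glmQLFTest, R 4.3.3), with Benjamini-Hochberg adjustment over all 18366 genes tested and a threshold of 0.05. The study modelled TPM by ANOVA, and limma 3.58.1 on log2(TPM + 1) and DESeq2 1.42.0 were alternatives, as were other scalings and filters, each library left out and the replicate number as a block. Adding readthrough reads was an alternative chosen after seeing the data. The scripts were tested on simulated data. Deviations from the group means of same-numbered libraries correlated at 0.473, 0.124 and 0.616 for replicates 1, 2 and 3. Those of libraries with different numbers correlated at -0.573 to 0.289. The libraries numbered 1 and those numbered 3 thus deviated together, whereas the value for replicate 2 lay within the range of different numbers. The sources do not say what the numbers mark. The test was fitted without the block, since the study's methods give none, and blocked values are printed where they change a call.

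Every gene of the family that was tested or expressed was named, with values by library for those past the threshold with or without *ZK3*-KO replicate 3 and for the 5 with the highest mean TPM. Of each list, the genes past the threshold and the 2 with the largest absolute log2 fold change at an average log2 CPM of at least 1 were named, with the exceptions stated. The members and lists were chosen with earlier results of these data known, the lists from general knowledge. Exact Poisson-based 95% intervals cover counting error only. Positions for 40 of 41 genes came from GENCODE v44 lifted to GRCh37, and 30 of 41 had an entry in the RefSeq promoter table. One receptor gene with the same prefix was not analysed here.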

Additional observations from a re-analysis of the deposited data

How the results depend on the processing

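Over all genes, 376 passed an FDR of 0.05, against 1278 with DESeq2 and 49 to 2858 when 1 library was left out. Of the family, 2 genes passed, against 4 with DESeq2, 1 when at least 10 reads were required in every library (where *TNFSF18* could not be tested), 1 with the readthrough reads added, and 0 to 8 when 1 library was left out. Of the signalling genes, 0 passed, against 4 with DESeq2 and 0 to 14 when 1 library was left out. With the replicate number as a block, 4 family genes passed (*TNFSF13*, *TNFSF18*, *TNFRSF6B* and *TNFRSF10D*), 2 signalling genes passed (*EDAR* and *ICAM1*) and 461 genes passed in all, and the block changed no other call of a named gene. Signs turned for *TNFAIP2* with library totals (-0.07), upper-quartile factors (0.00) and limma on TPM (-0.13), for *TNFRSF10A* with library totals (-0.02) and limma (-0.06), and for *EDA* with library totals (-0.06), upper-quartile factors (-0.01) and limma (-0.07). Leaving out 1 library gave log2 fold changes from -0.10 to 0.21 for *EDA*, -0.15 to 0.11 for *TNFAIP2*, -0.17 to 0.07 for *TNFAIP8L1*, -0.36 to 0.05 for *TNFAIP8L2-SCNM1*, -0.67 to 0.18 for *TNFRSF1A*, -0.30 to 0.41 for *TNFRSF8*, -1.59 to 0.41 for *TNFRSF9* and -0.29 to 0.09 for *ZKSCAN3*. The cause was not tested. Genes expressed in *ZK3*-WT cells numbered 19, and 22 at 0.5 TPM, 13 at 5 TPM and 21 at 1 CPM. With 3 libraries a group and *ZK3*-KO replicate 3 apart from the others, a gene that missed the threshold is not shown to be alike in both genotypes.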
